A study of Homo sapiens with 12 samples.

Results

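The integrated stress response mRNAs described here are 7 of the 12357 genes in the count table, and all 7 listed were found: PPP1R15A, PPP1R15B, ATF4, ATF5, IFRD1, SLC35A4 and IBTK. They were chosen by symbol, as mRNAs whose upstream reading frames are known to govern translation when eIF2α is phosphorylated. The rule uses no measured value, though earlier results of these data were known when the list was drawn up. Ribosome footprints, the RNA fragments protected by ribosomes, had been sequenced from 3 wild-type lymphoblastoid lines, GM18505, GM19193 and GM19204. Such lines are made by transforming B cells with Epstein-Barr virus. Each gave 1 culture that received sodium arsenite, an oxidative stressor, for 30 min, and 1 control culture that received water. Every culture was sequenced in 2 libraries, T, in which CRISPR was used to deplete ribosomal RNA, and U, in which it was not. T and U are technical replicates, so n = 3 cell lines per group, 1 culture of each. The p-values rest on the spread between these cultures, which the fits estimate largely across genes. They do not measure a member's own spread over its 3 pairs. No RNA-seq was analysed here, so more footprints per mRNA and more mRNA cannot be told apart. Likewise, a change in every cell and a change in some cells cannot be told apart.

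Phosphorylated eIF2α lowers the supply of initiator tRNA to scanning ribosomes, and most mRNAs are then translated less. In mRNAs with upstream open reading frames (uORFs), the same shortage changes which start codon a scanning ribosome uses. In ATF4, the best studied case, ribosomes that have translated a short first uORF normally restart at a second one that overlaps the coding frame, and under stress they pass that start and reach the coding start instead. ATF4 and ATF5 are transcription factors of this response. PPP1R15A and PPP1R15B bring protein phosphatase 1 to eIF2α and so reverse the signal, PPP1R15A as the stress-induced subunit (GADD34) and PPP1R15B as the constitutive one (CReP). IFRD1 is a transcriptional coregulator, SLC35A4 belongs to the nucleotide sugar transporter family, and IBTK binds and inhibits Bruton's tyrosine kinase. Counts are per gene, so footprints on an upstream frame and on the main frame cannot be separated in the values below.

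The leaders, the part of the mRNA before the main start codon, were read from the MANE Select transcripts of GENCODE 44 on GRCh38. Every one of the 7 holds at least 1 upstream ATG, as do 40.7% of the 10809 coding genes of the table with such a transcript. An upstream frame that overlaps the main start in another frame was found in ATF4 and ATF5, against 12.5% of those coding genes. ATF4 (chromosome 22, 39519695-39522683, plus strand) has a leader of 282 bases with 3 upstream starts, and ATF5 (chromosome 19, 49928702-49933935, plus strand) has 315 bases with 2. Their arrangement is alike: a short frame of 3 codons is followed by a frame of 59 codons, which runs 83 bases past the main start in ATF4 and 56 bases past it in ATF5. Upstream of both, ATF4 has in addition a start codon followed at once by a stop. These whole short frames are shown because the known ATF4 mechanism involves such a frame, with start and stop codons in capitals. Frames are numbered by their order in the leader. Frames 2 and 3 of ATF4 thus match the short and the overlapping uORF described above, and frame 1 is the additional start.
ATF4 frame 1 (start codon at chr22:39520586-39520588): ATGTAG
ATF4 frame 2 (start codon at chr22:39520648-39520650): ATGgcgtatTAG
ATF5 frame 1 (start codon at chr19:49929274-49929276): ATGgctctgTAG

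The overlapping frames of ATF4 and ATF5 open in closely similar surroundings, shown with the upstream ATG in capitals. Both have a purine 3 bases before the ATG and a G right after it, the bases that favour recognition of a start codon.
ATF4 frame 3 (start codon at chr22:39520747-39520749): gcttaagccATGgcgcttct
ATF5 frame 2 (start codon at chr19:49929396-49929398): gctgcagccATGgagtcttc

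The other 5 leaders hold upstream frames that all end before the main start. PPP1R15A (chromosome 19, 48872212-48876059, plus strand) has a leader of 240 bases with frames of 22 and 26 codons. PPP1R15B (chromosome 1, 204396492-204411887, minus strand) has 406 bases with frames of 8 and 51 codons, and IFRD1 (chromosome 7, 112422887-112481017, plus strand) has 229 bases with a single frame of 52 codons. SLC35A4 (chromosome 5, 140564446-140569100, plus strand) has the longest leader of the 7, 735 bases, and 11 upstream starts, the first opening a frame of 103 codons. Only 2.68% of the coding genes have a longer leader. IBTK (chromosome 6, 82169986-82247754, minus strand) has 540 bases and 5 upstream starts. For each of these genes the start of 1 long upstream frame is shown, with the ATG in capitals, to let its surroundings be compared with those above. Of these 5 windows, that of IBTK lacks the purine 3 bases before the ATG, and those of PPP1R15B and SLC35A4 have the G after it.
PPP1R15A frame 2 (start codon at chr19:48872554-48872556): gagggtgagATGaacgcgct
PPP1R15B frame 2 (start codon at chr1:204411640-204411642): cccgccaggATGgaagtcgc
IFRD1 frame 1 (start codon at chr7:112450487-112450489): gagagaaacATGtatcgttt
SLC35A4 frame 1 (start codon at chr5:140564844-140564846): gcggggaagATGgcggatga
IBTK frame 2 (start codon at chr6:82247605-82247607): tgtggctctATGtggaccct

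**Figure D1:**
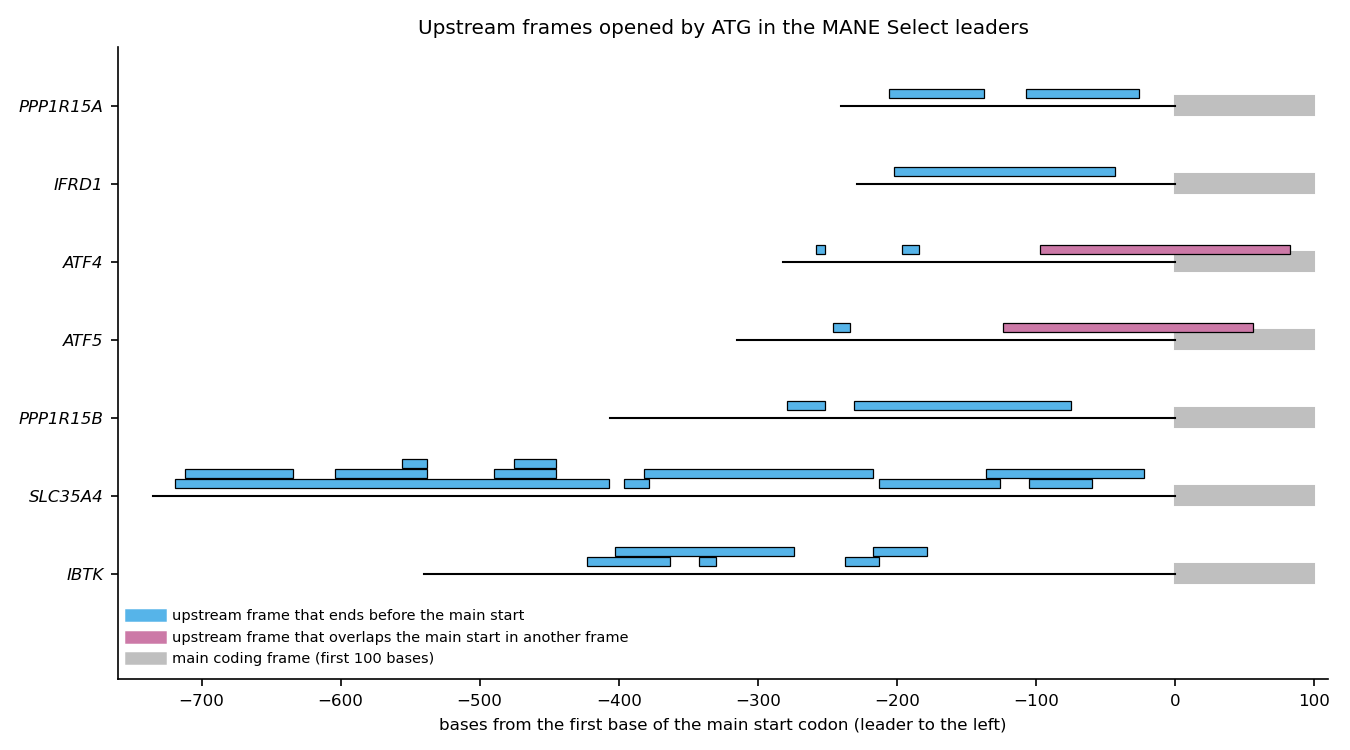
Upstream frames opened by ATG in the 7 leaders, drawn to scale in bases from the main start codon (x axis), with 1 gene per line, frames that end before the main start in blue, those that overlap it in purple and the first 100 bases of the main frame in grey. ATF4 and ATF5 each carry 1 overlapping frame of 59 codons, and SLC35A4 carries 11 starts along 735 bases.

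Counts in genes ranged from 637177 to 1730558 per arsenite library and from 1979496 to 4112703 per control library, so the arsenite libraries were shallower. A member's own reads could still be higher under arsenite, as the counts below show. The 16 synthetic spike-in oligomers had been added per amount of digested RNA. A scaled count below is a gene's count divided by the culture's spike-in factor, which was set from 7 oligomers, so it is a level per spike-in and not per cell. The log2 difference of these factors within a pair had a standard error of 0.13 for GM18505, 0.18 for GM19193 and 0.08 for GM19204. On this scale the median log2 fold change of all genes was −1.78, against 0.03 with TMM, a normalization that centres the genes on each other. Both are given, since a member can fall per spike-in and still rise relative to other mRNAs. All 10 B cell markers looked for were in the table, and none of 4 T cell, 3 monocyte and 2 erythroid markers was. Of 3 fibroblast markers COL1A1 and COL1A2 were in the table, DCN was not, and the summed level was between 11.5 and 103 per 1000000 gene counts in arsenite cultures and between 2.55 and 6.26 in control cultures. The part of such transcripts in the results was not tested.

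Across the 7 mRNAs, PPP1R15A, IFRD1 and ATF4 rose per spike-in under arsenite, PPP1R15B, SLC35A4 and IBTK fell, and ATF5 did not pass the test, whereas with TMM scaling 6 rose and IBTK (log2 fold change −0.26) did not pass. The tests were edgeR's quasi-likelihood test over all 12357 genes, with an adjusted p under 0.05. Of all genes tested, 1.12% rose and 74.1% fell per spike-in, and 27.8% rose and 26.6% fell with TMM. Of the 10872 coding genes, 90 rose and 8824 fell per spike-in, and 2412 rose and 3235 fell with TMM. Thus 3 of 7 members stood among the few genes that rose, and 3 of 7 among the many that fell. The median log2 fold change of the 7 was −0.03 per spike-in and 1.79 with TMM. In scaled counts, every arsenite culture lay above every control culture for PPP1R15A, IFRD1 and ATF4, as for 0.947% of all genes, and below for PPP1R15B, SLC35A4 and IBTK, as for 68.7%.

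The stress-induced phosphatase subunit PPP1R15A had 494, 1085 and 1123 reads in the arsenite cultures of GM18505, GM19193 and GM19204, against 325, 334 and 485 in their control cultures, although the arsenite cultures had fewer reads in all. The scaled counts were 581, 1121 and 856 in arsenite cultures and 274, 396 and 524 in control cultures. All 3 arsenite values were above all 3 control values, the lowest of them by a small margin. The means were 853 ± 270 in arsenite and 398 ± 125 in control (SD, n = 3 each), and PPP1R15A rose with a log2 fold change of 1.10 (SE 0.36, edgeR adjusted p = 0.00375). The log2 ratio of each pair, with the 95% exact counting interval given the spike-in scale, was 1.08 (0.88 to 1.29) in GM18505, 1.5 (1.32 to 1.68) in GM19193 and 0.71 (0.55 to 0.87) in GM19204. Against the median coding gene of the same pair, PPP1R15A was 8.61-fold, 7.47-fold and 8.38-fold higher in the ratio of arsenite to control. Its ratio relative to that median thus varied less over the lines (SD 0.11 on the log2 scale) than its ratio per spike-in (SD 0.40). Without GM18505 the log2 fold change was 1.10 and the adjusted p 0.241.

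PPP1R15B, the constitutive subunit, moved the other way per spike-in. Its reads were 191, 234 and 255 in the arsenite cultures of GM18505, GM19193 and GM19204, against 427, 344 and 526 in control. Scaled counts were 225, 242 and 194 in arsenite cultures and 360, 408 and 568 in control cultures, with no overlap. PPP1R15B fell by 0.99 on the log2 scale per spike-in (SE 0.37, edgeR adjusted p = 0.0106), but rose with TMM (log2 fold change 0.82, adjusted p = 0.00184). The log2 ratios were −0.68 (−0.93 to −0.43) in GM18505, −0.76 (−1.002 to −0.512) in GM19193 and −1.55 (−1.77 to −1.33) in GM19204, each above the coding median of its pair, which was −2.02, −1.40 and −2.36. The call was lost without GM18505 (log2 fold change −1.15, SE 0.82, adjusted p = 0.216), without GM19204 (−0.72, adjusted p = 0.181) and without scaling (−0.92, adjusted p = 0.0903). An antisense lncRNA that was not analysed here overlaps 8.61% of the PPP1R15B exon bases, and no source states whether the counting used strand.

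**Figure D2:**
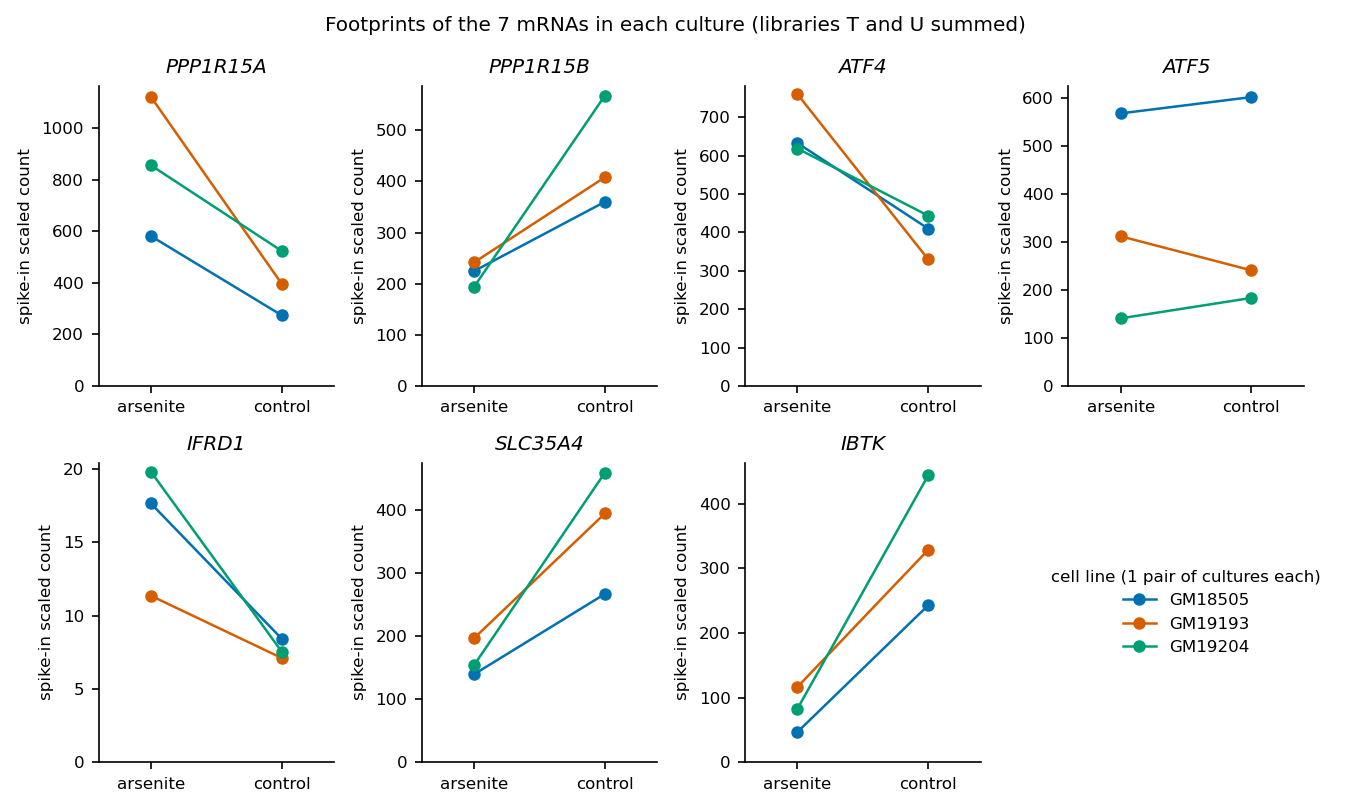
Spike-in scaled counts (y axis, from 0) of the 7 mRNAs in the arsenite culture (left) and the control culture (right) of each cell line, T and U summed, with a line joining the cultures of a pair. PPP1R15A, ATF4 and IFRD1 were higher under arsenite in all 3 lines, PPP1R15B, SLC35A4 and IBTK lower, though with TMM scaling PPP1R15B and SLC35A4 rose, and ATF5 was higher in GM19193 only.

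ATF4, the central transcription factor of the response, had 538, 736 and 812 reads in arsenite cultures of GM18505, GM19193 and GM19204, against 486, 278 and 411 in control cultures. The scaled counts were 633, 760 and 619 in arsenite and 410, 330 and 444 in control. The groups did not overlap, and the means were 671 ± 78 in arsenite and 394 ± 58 in control (SD, n = 3 each). ATF4 rose with a log2 fold change of 0.77 (SE 0.36, edgeR adjusted p = 0.0438), which lay close to the threshold and was lost without GM18505 (0.374) and without GM19204 (0.0825). With TMM its log2 fold change was 2.59. The log2 ratios were 0.63 (0.45 to 0.81) in GM18505, 1.205 (1.004 to 1.409) in GM19193 and 0.48 (0.31 to 0.65) in GM19204. Relative to the coding median they came to 6.27-fold, 6.09-fold and 7.15-fold, with an SD of 0.12 on the log2 scale. ATF4 has processed pseudogenes, and reads that map equally well to them were lost by unique mapping, so its count lacks them.

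ATF5 was the member whose level differed most between the lines. Its reads were 483, 302 and 185 in arsenite cultures of GM18505, GM19193 and GM19204, against 714, 203 and 170 in control cultures. The scaled counts were 568, 312 and 141 in arsenite and 602, 241 and 184 in control, so the groups overlapped and GM18505 was the highest line in both. The fitted log2 fold change was −0.03 (SE 0.37, edgeR adjusted p = 0.947), while with TMM ATF5 rose by a log2 fold change of 1.79 (adjusted p = 3.23e-05). The log2 ratios were −0.08 (−0.25 to 0.08) in GM18505, 0.37 (0.11 to 0.64) in GM19193 and −0.38 (−0.69 to −0.07) in GM19204. Relative to the coding median, however, they were 3.83-fold, 3.42-fold and 3.94-fold. ATF5 shares 9.77% of its exon bases with NUP62 and 3.74% with IL4I1, both on the other strand. IL4I1 had 432, 363 and 205 reads in arsenite cultures and 4542, 1274 and 954 in control cultures of GM18505, GM19193 and GM19204, so it was also highest in GM18505. NUP62 had 79, 137 and 126 reads in arsenite and 739, 489 and 785 in control. Both fell, with log2 fold changes of −2.55 for IL4I1 and −2.64 for NUP62, and whether their reads enter the ATF5 counts was not tested.

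**Figure D3:**
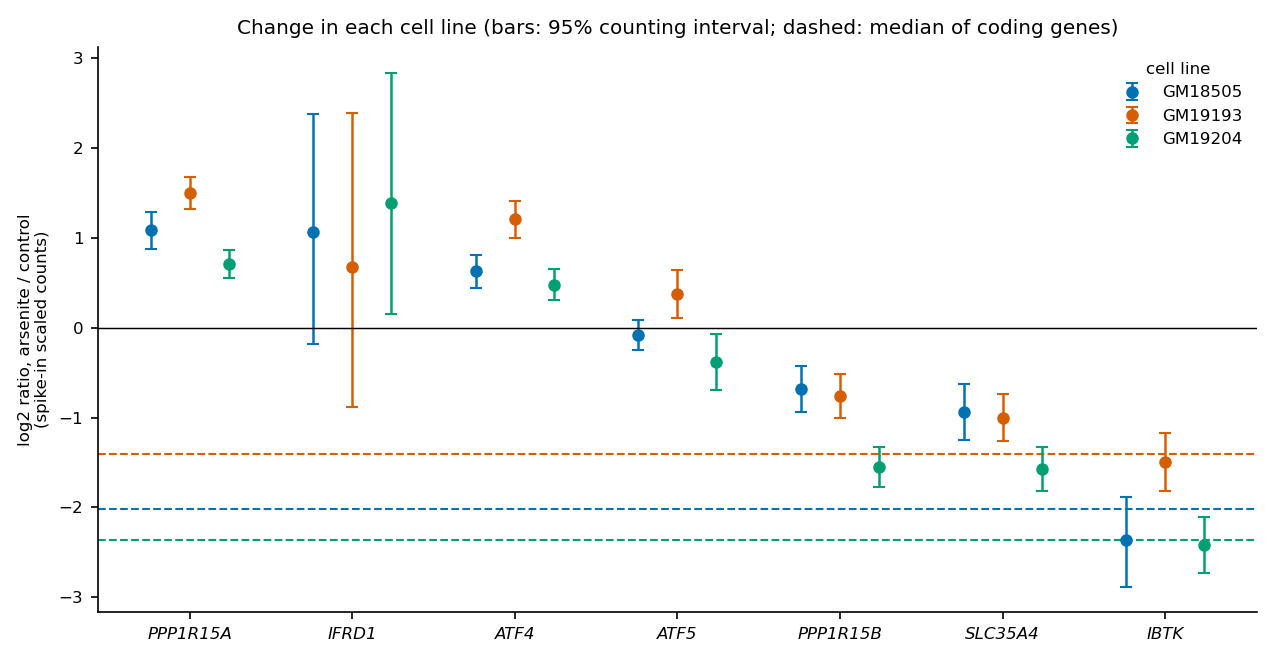
Log2 ratio of arsenite to control (y axis) of each mRNA in GM18505, GM19193 and GM19204, from spike-in scaled counts with T and U summed. Bars are 95% exact counting intervals, which hold no error of the scale, and the dashed lines at −2.02, −1.40 and −2.36 are the medians of all coding genes in each line.

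IFRD1 had the fewest reads, 15, 11 and 26 in arsenite cultures of GM18505, GM19193 and GM19204 against 10, 6 and 7 in control. Scaled counts were 17.6, 11.4 and 19.8 in arsenite and 8.43, 7.12 and 7.56 in control, without overlap. IFRD1 rose per spike-in with a log2 fold change of 1.06 (SE 0.49, edgeR adjusted p = 0.0393), and with TMM by 2.92. At this depth the counting intervals of its log2 ratios were wide, 1.06 (−0.19 to 2.38) in GM18505, 0.67 (−0.89 to 2.39) in GM19193 and 1.39 (0.15 to 2.84) in GM19204. The call was lost in 8 of 20 other settings, among them without GM18505 (adjusted p = 0.146), without GM19204 (0.17) and with DESeq2 on the same scale (0.16). A read-through gene on the same strand covers 53.3% of the IFRD1 exon bases. Reads there cannot be assigned to 1 of the pair, so the count of IFRD1 is uncertain.

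SLC35A4, whose first upstream frame is known to encode a microprotein of its own, had 119, 191 and 203 reads in arsenite cultures of GM18505, GM19193 and GM19204, against 317, 333 and 426 in control cultures. The scaled counts were 140.0, 197 and 155 in arsenite and 267, 395 and 460 in control, without overlap. SLC35A4 fell by 1.17 on the log2 scale per spike-in (SE 0.38, edgeR adjusted p = 0.00318), but rose with TMM (log2 fold change 0.64, adjusted p = 0.00633). Its log2 ratios were −0.93 (−1.25 to −0.63) in GM18505, −1.002 (−1.266 to −0.741) in GM19193 and −1.57 (−1.82 to −1.33) in GM19204, or 2.13-fold, 1.32-fold and 1.72-fold above the coding median. Without GM18505 (adjusted p = 0.163) or without GM19204 (0.0692) the call was lost.

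IBTK, the kinase inhibitor, fell like the bulk of mRNAs. It had 40, 113 and 109 reads in arsenite cultures of GM18505, GM19193 and GM19204, against 288, 277 and 411 in control cultures. The scaled counts were 47.0, 117 and 83.0 in arsenite and 243, 329 and 444 in control, far apart. IBTK fell by 2.09 on the log2 scale per spike-in (SE 0.40, edgeR adjusted p = 6.30e-07), a call that held without each line in turn, while with TMM it did not pass (log2 fold change −0.26, adjusted p = 0.151). The log2 ratios were −2.37 (−2.88 to −1.89) in GM18505, −1.49 (−1.82 to −1.17) in GM19193 and −2.42 (−2.74 to −2.11) in GM19204. Each interval holds the coding median of its own pair.

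A rank does not depend on the scale between cultures, so the log2 ratio of each member was ranked among the 500 coding genes nearest to it in count. PPP1R15A was 2nd, 3rd and 7th from the top in GM18505, GM19193 and GM19204. ATF4 was 6th, 4th and 7th, and ATF5 was 7th, 7th and 12th. These 3 mRNAs were thus in the top few percent in every line, ATF5 included, which did not pass the test per spike-in. PPP1R15B ranked 20th, 45th and 43rd, and SLC35A4 ranked 30th, 74th and 46th. IFRD1 ranked 28th, 83rd and 14th among genes with similarly few reads, whose ratios scatter widely. IBTK ranked 281st, 219th and 210th, near the middle. By the mean over lines, 99.8% of the compared genes lay below PPP1R15A, 99.4% below ATF4, 99.0% below ATF5, 97.8% below IFRD1, 93.8% below PPP1R15B, 91.2% below SLC35A4 and 53.0% below IBTK.

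**Figure D4:**
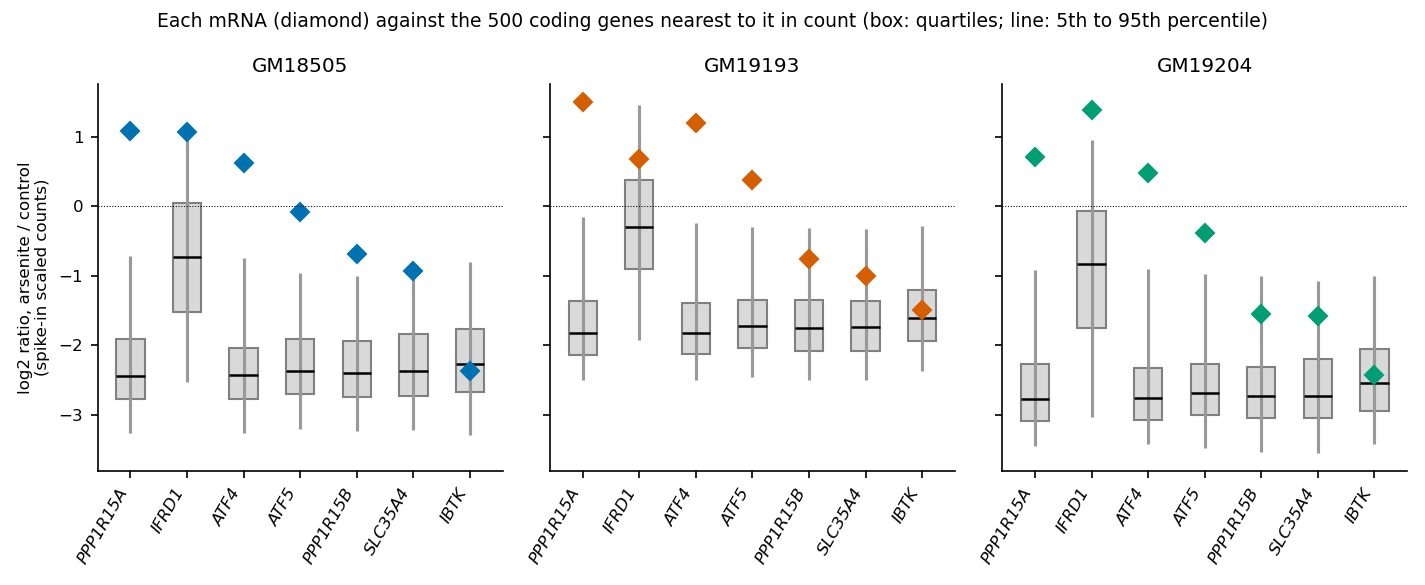
Log2 ratio of arsenite to control (y axis, spike-in scaled counts) of each mRNA (diamonds) beside the 500 coding genes nearest in count, 1 panel per cell line, with boxes for their quartiles, black lines for their medians and grey lines from the 5th to the 95th percentile. PPP1R15A, ATF4 and ATF5 lie above the grey lines in all 3 lines, and IBTK lies inside its box.

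In the order of the members by their ratio, neighbours were compared within each line, where the scale cancels. PPP1R15A and IFRD1 were not separated, with differences of 0.02, 0.83 and −0.68 in GM18505, GM19193 and GM19204, nor were IFRD1 and ATF4, with differences of 0.44, −0.53 and 0.91. ATF4 stood above ATF5 by 0.71, 0.83 and 0.86 (mean 0.80 ± 0.08, SD, n = 3), the smallest SD of the 6 neighbouring pairs. ATF5 stood above PPP1R15B by 0.60, 1.13 and 1.17. PPP1R15B and SLC35A4 differed by 0.25, 0.25 and 0.02, and their intervals overlapped in all 3 lines. SLC35A4 was above IBTK by 1.43, 0.49 and 0.85. With 3 pairs the smallest two-sided p of an exact sign-flip test is 0.25, so that test cannot reach 0.05, and the differences are given as a description.

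Levels were compared between the mRNAs as scaled counts per kilobase of annotated exon, a length that also holds untranslated bases. Under arsenite ATF4 (257 ± 29.8 against 151 ± 22.4 in control) and PPP1R15A (248 ± 78.6 against 116 ± 36.3) were highest and could not be separated beyond their spread (SD, n = 3 each). ATF5 followed at 118 ± 74.4 in arsenite and 118 ± 78.5 in control, with a range over lines from 48.7 to 197 in arsenite that overlapped PPP1R15A. SLC35A4 was at 40.7 ± 7.38 in arsenite and 92.8 ± 24.3 in control, PPP1R15B at 23.6 ± 2.57 in arsenite and 47.7 ± 11.6 in control, and IBTK at 9.44 ± 3.996 in arsenite and 38.8 ± 11.5 in control. IFRD1 was lowest in both, at 2.06 ± 0.56 in arsenite and 0.97 ± 0.08 in control. Its length here was 7902 bases, against 3269 in its MANE Select transcript, and the read-through gene leaves its count uncertain.

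Libraries T and U gave log2 ratios of the same sign in all 21 combinations of member and cell line, and their counting intervals overlapped in 19. The exceptions were both in ATF4, which had 0.32 in T and 0.88 in U of GM18505, and 0.20 in T and 0.74 in U of GM19204. In GM19193 ATF4 had 1.29 in T and 1.21 in U. The largest difference, 0.90 in IFRD1 of GM18505, rested on 7 arsenite and 2 control reads in T against 8 arsenite and 8 control reads in U. With the T libraries alone ATF4 did not pass (edgeR log2 fold change 0.59, adjusted p = 0.186).

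**Figure D5:**
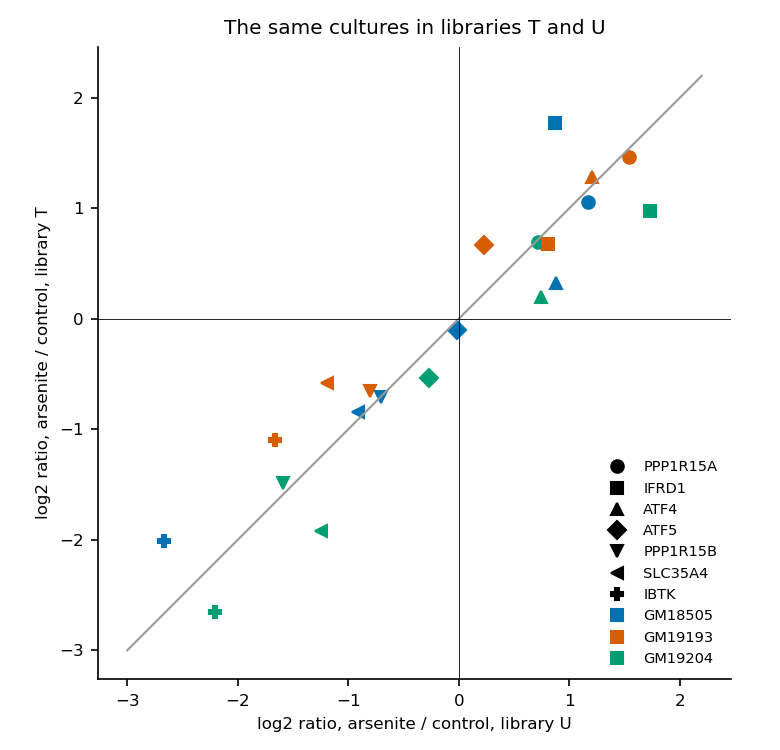
Log2 ratio of arsenite to control in library T (y axis) and library U (x axis) for each mRNA (symbols) and cell line (colours), with the line of equality. All 21 points have the same sign on both axes, and ATF4 in GM18505 and GM19204 lies below the line.

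Among other coding genes of the table, upstream starts went along with a smaller loss of footprints. The median log2 fold change per spike-in was −2.10 in 6413 genes without an upstream ATG, −1.76 in 2107 genes with 1 and −1.47 in 2282 genes with 2 or more, the 7 members left out. Their median leaders also differed, at 88, 183 and 348 bases, as did their median counts per culture, at 138, 93.0 and 74.5. The parts of leader length and count in this order were not tested. Of the genes with 2 or more, 1.31% rose and 70.9% fell, against 0.608% and 86.2% of those without an upstream ATG. In all coding genes with a leader these shares were 0.823% and 81.3%. The median was −1.565 in genes with an overlapping upstream frame, against −1.606 where upstream starts were present but none overlapped. These genes also differed in median leader length, at 213 and 274 bases, and the effect of overlap was not tested. Among the members, SLC35A4 with 11 upstream starts fell and PPP1R15A with 2 rose per spike-in, and both rose with TMM.

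Of 10 other mRNAs listed for known upstream control, 7 were in the table. Per spike-in 4 fell, against 74.1% of all genes, and none rose, against 1.12%, with a median log2 fold change of −1.39. With TMM 3 rose and 2 fell, against 27.8% and 26.6% of all genes. Those that fell included SLC7A1, a cationic amino acid transporter (−2.97), EPRS1, a tRNA synthetase (−2.54), and UCP2, a mitochondrial carrier (−1.87). The transcription factors CEBPA (0.21, adjusted p = 0.669) and CEBPB (−0.11, adjusted p = 0.806) and the protease BACE1 (0.10, adjusted p = 0.866) did not pass per spike-in, and these were the 3 that rose with TMM, by 2.01, 1.71 and 1.82.

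The factors that act around eIF2 had medians below that of all coding genes (−1.91 per spike-in). Per spike-in 74.1% of all genes fell, and 26.6% with TMM. Of the 10872 coding genes, 8824 fell per spike-in and 3235 with TMM. The fall of coding genes differed with count, however. Among the 500 nearest in count the median log2 ratio was −2.35 for PPP1R15A, −2.13 for IBTK and −0.57 for IFRD1. These factors were not compared with genes of like count. All 4 eIF2α kinases fell per spike-in (median −2.39, and 3 with TMM), as in EIF2AK2 (PKR, −2.78), EIF2AK1 (HRI, known as the kinase that arsenite activates, −2.34) and EIF2AK4 (GCN2, −2.43). All 8 subunits of eIF2 and its exchange factor eIF2B fell (median −2.67, and 6 with TMM), among them EIF2S3 (−2.71), EIF2S1, which is eIF2α itself (−2.69), and EIF2B1 (−2.71). The 6 partners of the phosphatase complex all fell per spike-in, with PPP1CA (−3.09) and PPP1CC (−2.72), catalytic subunits, and ACTB, β-actin (−2.79), while with TMM 4 fell and γ-actin, ACTG1, rose (0.50). Of 10 factors that influence start choice or reinitiation, 10 fell (median −2.67, and 8 with TMM), with the smallest p for EIF1 (−3.66), EIF1AX (−2.83) and EIF2A (−2.75).

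Among 23 listed targets of ATF4, 19 were in the table. None rose and 18 fell per spike-in, beside 1.12% and 74.1% of all genes. Their median log2 fold change was −1.97, against −1.91 for the 10872 coding genes, of which 90 rose and 8824 fell. With TMM 4 of these targets rose and 8 fell, beside 27.8% and 26.6% of all genes. The smallest p belonged to GARS1, a tRNA synthetase (−2.85), CEBPG, a transcription factor (−3.26), and MTHFD2, an enzyme of mitochondrial folate metabolism (−2.74). Footprints of ATF3, a stress-induced transcription factor (−0.59, adjusted p = 0.166), did not pass per spike-in. With TMM the 4 that rose were ATF3 (1.23), CHAC1, which degrades glutathione (0.90), VLDLR, a lipoprotein receptor (0.68), and SLC38A2, an amino acid transporter (0.29).

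The coding genes whose scaled log2 values over the 6 cultures were most like those of a member, by the root mean square (RMS) difference after centring, were looked up among up to 9686 genes averaging 20 reads or more per culture. JUN was nearest to ATF4 (RMS 0.16), followed by MAGI2 and SYNDIG1L (0.20 and 0.23), and none of the 3 passed the test. NRXN2, GBP7 and FBLL1 were nearest to PPP1R15A (0.25 to 0.29), and PCDH19, SKIDA1 and PLEKHH3 to ATF5 (0.27 to 0.36). Nearest to IFRD1 were SFRP5, SLC25A28 and CTC1 (0.14 to 0.29). The members that fell had closer neighbours: ZNF707, ADCY7 and LIG4 for PPP1R15B (0.10 each), USP38, RABEP2 and BAZ2B for SLC35A4 (0.05 to 0.09), and SLC15A3, ABHD17B and USO1 for IBTK (0.05 to 0.07). The number of candidates differed between the directions, and its part in that contrast was not tested. In 68.7% of all genes every arsenite culture lay below every control culture, and in 0.947% above.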

How the data were processed

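Ribosome footprints of 6 cultures (3 arsenite, 134 µM for 30 min, and 3 control) in 12 libraries were analysed. The deposited values are whole-number counts per gene and per spike-in oligomer, not normalized: the authors trimmed reads, removed ribosomal, transfer and small nucleolar RNA, mapped uniquely to GRCh38 with TopHat2 (up to 2 mismatches), counted GENCODE 37 genes with featureCounts of Subread, and dropped genes lacking a read in any library. No version of these tools is given in the sources used.

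Counts of T and U were summed per culture and tested with edgeR 4.0.16 (glmQLFit, glmQLFTest; R 4.3.3), with cell line and treatment as terms and Benjamini-Hochberg adjustment. Library sizes came from 7 oligomers (each with 10 or more reads per library), as the mean of log2 count less log2 nominal concentration. Which mix was in which pool, which sets these concentrations, was read from a diagram of the study; the alternatives with all 16 or the 4 most concentrated oligomers do not need it. Intervals are exact binomial (Clopper-Pearson, 95%) and cover counting error only. Cultures pair by cell line, the source of both; their deviations from group means correlated at 0.70, 0.64 and 0.64 over 8265 genes. Alternatives used TMM, DESeq2 1.42.0, limma 3.58.1, other scales, library subsets and left-out lines. RUVg, the spike-in method of the study, was rewritten here and not run from its package. Its control rows joined oligomers of the same nominal rank in each library, so a row could hold different oligomers. Models were tested on simulated data. All 7 members, up to 3 genes with the smallest p of each other list, the 3 genes most like each member and overlapping genes are named. ATF3, CHAC1, VLDLR, SLC38A2, ACTG1 and the listed uORF mRNAs that did not pass were chosen to be named after their values were seen. Members and lists were chosen with earlier results of these data known.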

Additional observations from a re-analysis of the deposited data

Results flagged for a closer look

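ATF5 changed in opposite directions in different cell lines per spike-in. Its log2 ratio of arsenite to control was 0.37 in GM19193, where both libraries were above 0, and −0.084 in GM18505 and −0.38 in GM19204, where both libraries were below 0. The difference between lines was not tested, since each line has 1 pair of cultures. The coding median of each pair moved in the same order (−1.40 in GM19193, −2.02 in GM18505 and −2.36 in GM19204), and relative to it ATF5 was higher in all 3 lines, by 1.77, 1.94 and 1.98 on the log2 scale. No library lay far from the other 5 of its group in any of the 14 groups of 6 looked at. Each group holds T and U of 3 cultures, so a far culture has its second library beside it and would hardly be flagged. The chance rate of about 1 flag in 20 groups assumes 6 independent libraries, so it does not apply here.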

How the results depend on the processing

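Subtracting the median of all genes removes a common scale, so settings that change only the scale must give nearly the same place. Over 21 settings, the log2 fold change less that median was 2.84 to 2.96 for PPP1R15A, 2.42 to 2.69 for ATF4 and 2.45 to 3.28 for IFRD1. It was 1.71 to 1.84 for ATF5, 0.59 to 0.94 for PPP1R15B, 0.46 to 0.80 for SLC35A4 and −0.40 to −0.10 for IBTK. Left-out lines gave both ends of the range for IFRD1, ATF5, PPP1R15B and SLC35A4. The place of IFRD1 also goes with its low count: the 500 coding genes nearest in count had a median log2 ratio of −0.57, against −2.25 for those nearest to ATF5. Calls moved with the setting, and the cause was not tested. Against 138 genes that rose and 9162 that fell, TMM gave 3433 and 3290 and DESeq2's own size factors 2843 and 2673, each with 6 uORF mRNAs that rose and 0 that fell. Those fits gave log2 fold changes of 0.820 and 0.820 for PPP1R15B, 0.641 and 0.643 for SLC35A4 and 1.788 and 1.787 for ATF5. TMM without GM18505, GM19193 or GM19204, chosen after seeing the data, gave 2558, 3030 and 2754 genes that rose, 2601, 3100 and 2656 that fell, 6 uORF mRNAs that rose and 0 that fell each time, and log2 fold changes of 0.623, 0.920 and 0.893 for PPP1R15B, 0.488, 0.779 and 0.634 for SLC35A4 and 1.767, 1.811 and 1.762 for ATF5. The number that rose was 84 without scaling, 213 with all 16 oligomers, 88 with DESeq2 on the spike-in scale, 226 and 234 with limma at pseudocounts of 0.25 and 1, 368 with RUVg and 272 with 12 separate libraries (chosen after seeing the data). Only 1 uORF mRNA, PPP1R15A, rose without scaling, with the 4 most concentrated oligomers or with T libraries alone. ATF5, called in none of these, turned positive without scaling (0.040), with 16 oligomers (0.081), with limma (0.052 and 0.051) and with RUVg (0.104). Left-out lines gave 58 to 149 genes that rose, 6708 to 9642 that fell, 0 to 3 uORF mRNAs that rose, 1 to 3 that fell, and −0.22 to 0.14 for ATF5. The single uORF mRNA that fell without GM18505 or without GM19204 was IBTK. Both cultures of a pair share a cell line, and without the replicate block 79 genes and 2 uORF mRNAs rose, IFRD1 being lost (adjusted p = 0.0826), with no other call of the 7 changed.

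Among all coding genes in place of 500, the share below was 79.4% for PPP1R15B, 98.7% for ATF4, 93.5% for ATF5, 75.7% for SLC35A4 and 41.8% for IBTK. Among the nearest 200 it was 100% for ATF4, and with T alone, added after seeing the data, 64.2% for IBTK. TMM, added for the other lists, gave 3 other uORF mRNAs that rose and 2 that fell, 1 phosphatase partner that rose, and 4 ATF4 targets that rose and 8 that fell. Low counts limit IFRD1 most.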
